A study of Drosophila melanogaster with 19 samples.

Results

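The host genes of circular RNAs on chromosome 4 of Drosophila melanogaster were followed through fly heads and S2 cells. A gene was included when at least 1 back-splice junction on chromosome 4 named it as host in the tables of the wild-type and slow-polymerase heads. The genes plexA, CaMKI, bt, pan, Caps, mGluRA and Eph, 7 in number, were left out by the same rule. That gave 38 of the 45 chromosome 4 host genes, among 1689 host genes with a junction in heads. The rule used the list of junctions and not the size of any difference, although a gene had to reach 2 reads in a head table to be listed, and 6 of the 38 had exactly 2.

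Heads came from flies of the Canton-S background. Mutant flies carried C4, an allele of the large subunit of RNA polymerase II that elongates slowly, and are called slow. Wild-type Canton-S flies are called WT. Library titles combine the genotype with the number 29 or 18 and with replicate 1 or 2, which makes slow29, slow18, WT29 and WT18 with 2 RNA samples each. What 29 and 18 stand for, and the age and sex of the flies, are not stated in these sources. Each RNA sample gave 1 library after RNase R and 1 after mock treatment, 16 head libraries in all. S2 cells, a cultured line of embryonic origin, gave 1 RNase R and 1 mock library, and RNA of 1 WT head sample gave 1 strand-keeping library. For the strand-keeping library the labels give no RNase R units, as for the mock libraries, and no title number.

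In back-splicing, the spliceosome joins the end of a downstream exon to the start of an upstream one, and the product is a closed circle. RNase R digests linear RNA from its 3' end and spares molecules without an end, so circles gain weight in a treated library. Chromosome 4 is the smallest fly autosome: it is packaged largely as heterochromatin, yet many of its genes are active in the nervous system, among them the eye-selector genes ey and toy and genes of glutamate receptors and synaptic vesicle release. A back-splice read identifies the junction and not the rest of the molecule.

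Listed back-splice reads numbered 4871 to 20254 in RNase R head libraries and 800.0 to 3427 in mock head libraries. Levels below are reads per 10000 back-splice reads that carry a host gene, so every value is relative to the other circles of the same library. In heads of mixed cells, fewer cells of a type and less RNA per cell cannot be told apart. A floor of 3 reads stood at 1.501 to 6.31 per 10000 in RNase R head libraries and at 8.90 to 38.4 in mock head libraries, so single mock values rest on few reads. Summed circles of photoreceptor markers (10 of 11 genes with head reads, inaD at 0) were at 31.5 to 57.1 in RNase R heads and 199 to 434 in mock heads. Neuron markers (6 of 8 genes, Syt1 and elav at 0) were at 52.9 to 66.8 in RNase R heads and 60.2 to 93.0 in mock heads. Glia markers were at 0 for repo, moody and loco. In S2 cells no neuron or fat body marker had a read.

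Together the 38 genes held 3179 reads at 149 junctions in heads. They took 211 to 332 reads per 10000 in RNase R heads, with a mean of 268 ± 45.3, and 267 to 453 in mock heads, with a mean of 365 ± 63.2 (SD, n = 8 each). The ranges overlapped, but within every RNA sample the value was lower after RNase R. In replicate 2 of slow18 the difference was small (265 against 267). No test of the summed level was made. The 12 genes with the highest mean level in RNase R heads held 85.2% of the genes' head reads, and 6 genes had reads in every head library. Genes under 10 head reads numbered 18 and are described by counts.

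Of the 38 genes, toy had the highest mean level in RNase R heads and CG11155 the second highest. toy, a Pax6 homologue that acts upstream of ey in eye development, averaged 51.0 ± 18.5 in RNase R heads and 40.0 ± 17.7 in mock heads, in reads per 10000 (SD, n = 8 each). Its reads lay on 12 junctions that share a few start and end points. The largest, 4:1024784-1025244 (dm3, plus strand, the span of 2 exons of toy; the fewest exons that give the length are stated throughout), held 177 RNase R and 10 mock reads. A junction from 1012692 to 1019331 held 141 RNase R and 21 mock reads, and one from 1017138 to the same end held 91 RNase R and 12 mock reads. No toy junction therefore held more than 31.2% of the gene's head reads, so its level is the sum of several circles.

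CG2052 (dati), a zinc finger transcription factor, averaged 23.9 ± 6.73 in RNase R heads and 21.4 ± 16.3 in mock heads. Here 1 junction that spans a single exon, 4:411051-412170 (minus strand), held 245 of 264 head reads. sv, a Pax2 homologue, averaged 9.49 ± 2.68 in RNase R heads and 14.9 ± 10.3 in mock heads, mostly from 4:1116202-1122725 (plus strand, the span of 3 exons) with 74 RNase R and 16 mock reads. ey, the second Pax6 homologue, was rarer, with 46 RNase R and 2 mock reads over 7 junctions. Sox102F, a Sox family factor, had 55 RNase R and 6 mock reads. The homeodomain and zinc finger factor zfh2 had 40 RNase R and 31 mock reads. The host cell factor gene Hcf, a chromatin cofactor, had 13 RNase R and 10 mock reads. For both genes the read numbers were of similar size in the deeper RNase R and the shallower mock libraries.

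CG11155, of the ionotropic glutamate receptor family, averaged 42.6 ± 15.7 in RNase R heads and 41.9 ± 28.6 in mock heads. In contrast to toy, 480 of its 492 head reads lay on 1 junction, 4:1150061-1151212 (plus strand, the span of 4 exons). CG9935 (Ekar), a kainate-type glutamate receptor subunit, averaged 24.5 ± 11.8 in RNase R heads and 62.0 ± 19.6 in mock heads. Its main junction 4:659641-661362 (minus strand, the span of 5 exons) held 181 RNase R and 62 mock reads. A second junction with the same end, 4:659592-661362, held 50 RNase R and 13 mock reads, and its span matched no stretch of annotated exons. A longer one, 4:659641-664781, held 14 RNase R and 10 mock reads.

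Of the 7 genes in the list of synapse and neuronal surface genes, CG9935 was followed by cals, Syt7 and unc-13, and CG31999, CG32000 and plexB had 2 to 6 head reads. The place of CG31999 and CG32000 in this list is doubtful, and CG11155 is not in it. The calsyntenin gene cals averaged 15.6 ± 3.76 in RNase R heads and 15.0 ± 7.63 in mock heads. Syt7, a synaptotagmin calcium sensor, averaged 14.5 ± 3.55 in RNase R heads and 9.65 ± 9.80 in mock heads, with 4 of the 8 mock libraries at 0 or 1 read. unc-13, which primes synaptic vesicles for release, averaged 8.89 ± 2.79 in RNase R heads and 12.5 ± 11.0 in mock heads. Of its 100 head reads, 74 lay on 4:903243-904267 (minus strand, the span of 4 exons).

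Among kinase genes, Asator, of the tau tubulin kinase family, averaged 18.6 ± 4.00 in RNase R heads and 21.1 ± 8.43 in mock heads. Its junction 4:493773-495394 (minus strand, the span of 2 exons) held 110 RNase R and 18 mock reads. A second one, 4:495586-497728, held 38 RNase R and 2 mock reads. CG17471 (PIP4K), a lipid kinase, averaged 7.57 ± 4.17 in RNase R heads and 13.03 ± 12.1 in mock heads, with 91 of 99 reads on 4:1214186-1217103 (minus strand, the span of 7 exons). CaMKII, the calcium and calmodulin dependent kinase, had only 5 RNase R and 3 mock reads.

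Of the remaining genes, CG32016 (4E-T), which binds the cap-binding protein eIF4E, averaged 9.51 ± 4.00 in RNase R heads and 18.03 ± 14.0 in mock heads, all from 4:974139-975676 (minus strand, the span of 4 exons). CG1674 averaged 6.07 ± 3.497 in RNase R heads and 6.45 ± 7.60 in mock heads. Rfabg (apolpp), the precursor of the lipid carrier lipophorin made by the fat body, averaged 5.55 ± 2.74 in RNase R heads and 26.8 ± 13.1 in mock heads. Its 93 reads were spread over 28 junctions. The 18 rarest genes, among them onecut, pho, ci, gw and Pur-alpha, had 2 to 9 head reads each.

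**Figure D1:**
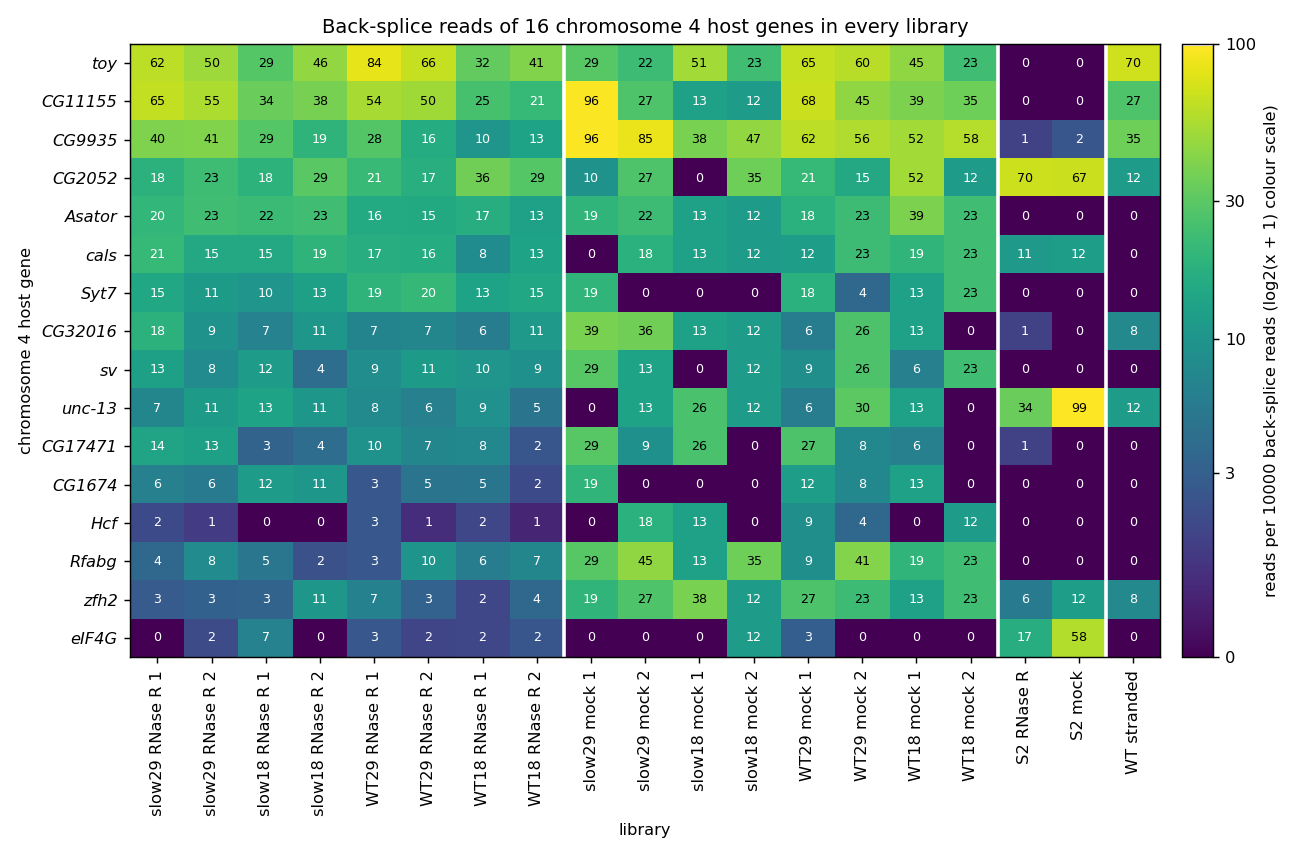
Reads per 10000 back-splice reads with a host gene (numbers and colour, on a log2(x + 1) colour scale) for 16 chromosome 4 host genes (rows) in each of the 19 libraries (columns). White lines part RNase R heads, mock heads, S2 cells and the stranded library. zfh2 and Rfabg have larger numbers in mock heads than in the RNase R heads beside them, and toy and CG11155 have none in S2 cells.

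Which of these circles kept their place among other circles when linear RNA was digested was asked by comparing RNase R with mock within RNA samples. By edgeR's quasi-likelihood test with Benjamini-Hochberg adjustment over all tested host genes, 5 of the 20 genes with enough reads fell and 0 rose, and 18 were too rare to test. Over all tested genes 9.63% were called (7.61% lower and 2.02% higher). Which direction prevailed over all genes depended on the scaling: 18 were higher and 68 lower as reported, 56 higher and 53 lower with RLE, and 171 higher and 49 lower with TMM over all tested genes. The median log2 fold change was -0.31 among the 20 genes and 0.17 among all 893. With RLE these medians were 0.01 and 0.48, and with TMM over all tested genes 0.43 and 0.85, so the sign of the median of the 20 genes changed with the scaling, while it stayed below that of all genes. Genes that fell were CG9935, zfh2, Rfabg, Hcf and CG32016. Of the list of synapse and neuronal surface genes, 4 of 7 could be tested, and 1 fell (CG9935). Of the transcription and chromatin list, 7 of 11 could be tested, and 2 fell (zfh2 and Hcf). Of the 3 signalling genes, 2 were tested and 0 were called.

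CG9935 had 10.02 to 40.9 (median 23.5) reads per 10000 in RNase R heads and 38.4 to 96.4 (median 57.4) in mock heads. Its level was lower after RNase R in 8 of 8 RNA samples, with a log2 fold change of -1.54 ± 0.25 (SE; edgeR adjusted p = 1.7e-08). The ranges met only where the highest RNase R values, both from slow29, passed the lowest mock value. All 3 CG9935 junctions kept reads after RNase R.

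zfh2 had 1.67 to 10.5 (median 3.30) in RNase R heads and 11.6 to 38.4 (median 23.0) in mock heads. These ranges did not overlap, but the mock values rest on 1 to 9 reads per library. The lowest mock value was 1 read in replicate 2 of slow18, where any read passes the highest RNase R value. The log2 fold change of zfh2 was -2.59 ± 0.42 (edgeR adjusted p = 3.3e-08). Its junctions were uneven. The 3-exon span 4:542099-547146 (plus strand) held 17 RNase R and 21 mock reads, whereas 4:544957-547146 held 12 RNase R and 2 mock reads. Differences between junctions of 1 gene were not tested.

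Rfabg had 2.10 to 9.72 (median 5.44) in RNase R heads and 8.90 to 44.96 (median 26.1) in mock heads, and was lower after RNase R in 8 of 8 RNA samples (log2 fold change -2.34 ± 0.40, edgeR adjusted p = 1.4e-07). No Rfabg junction spanned a stretch from an annotated exon start to an exon end, and 12 of the 28 lay on the strand opposite to the gene. Its most read junction, 4:1091375-1091549 (minus strand), held 5 RNase R and 20 mock reads. The other fat body markers also stood lower, at 1.501 to 15.1 per 10000 in RNase R heads and 9.64 to 51.2 in mock heads, with overlap. This was not particular to fat body. Photoreceptor markers were at 31.5 to 57.1 and 199 to 434, and muscle markers at 14.5 to 82.3 and 104 to 371. Neuron markers had a lower median after RNase R too, whereas hemocyte and glia lists had a higher one. The part of these lists in the result was not tested.

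Hcf had 0 to 2.50 (median 1.03) in RNase R heads and 0 to 17.99 (median 6.33) in mock heads, with a log2 fold change of -2.53 ± 0.67 (edgeR adjusted p = 0.00253). Hcf was lower after RNase R in 5 of 8 RNA samples and higher in 2. Its mock libraries held 0 to 4 reads each, and any mock read stood above every RNase R value. The direction per sample therefore shows only whether its mock library had a read. The call was lost without replicate 2 of slow29 (-1.99, adjusted p = 0.129) and with DESeq2 (adjusted p = 0.101). CG32016 had 5.85 to 18.3 (median 8.36) in RNase R heads and 0 to 38.6 (median 12.9) in mock heads, a log2 fold change of -1.20 ± 0.40 (edgeR adjusted p = 0.0352) and was lower in 6 of 8 RNA samples. That call ended without replicate 1 of slow29 (-1.15, adjusted p = 0.0930), replicate 2 of slow29 (-0.91, adjusted p = 0.280), replicate 1 of WT18 (-1.21, adjusted p = 0.0553) or replicate 2 of WT29 (-1.01, adjusted p = 0.235). The CG32016 call was also lost with every other scaling, with DESeq2, and with no filter or a filter of 50 reads (log2 fold changes from -1.20 to -0.40). CG9935, zfh2 and Rfabg stayed called without any 1 RNA sample.

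The abundant circles of toy, CG11155 and CG2052 had log2 fold changes near 0, with fitted intervals of -0.32 to 0.65 for toy, -0.67 to 0.30 for CG11155 and -0.74 to 0.55 for CG2052. For the 15 genes that were not called the values ran from -0.89 (CG17471) to 1.34 (ey), with adjusted p from 0.246 to 0.910. With DESeq2 the median was -0.14 among the 20 genes and 0.05 among all genes. With TMM over all tested genes 4 of the genes were lower and 3 higher, namely ey (1.99), Syt7 (1.22) and toy (0.90), while CG32016 at -0.40 was not called. CG9935, zfh2 and Rfabg kept their direction under all scalings tried.

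**Figure D2:**
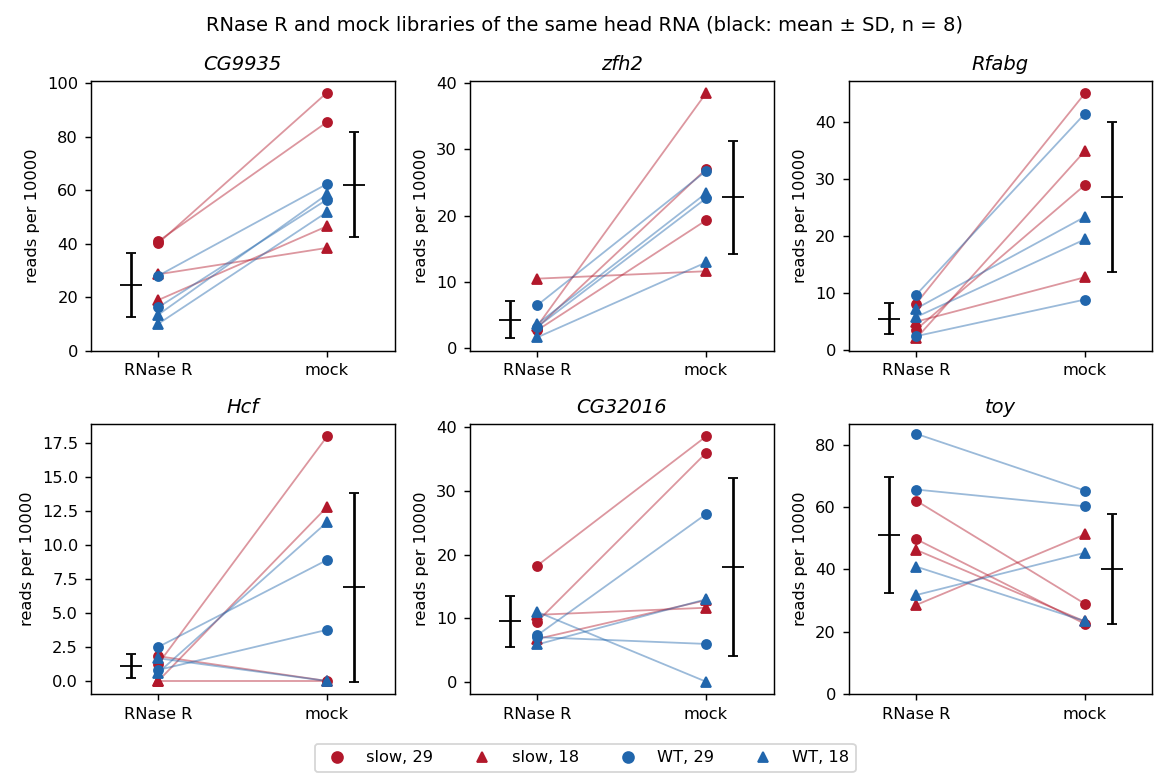
Reads per 10000 back-splice reads (vertical axes, from 0) of 6 genes in the RNase R and mock libraries of each head RNA sample, joined by a line. Black marks are the mean ± SD over 8 libraries. Lines for CG9935, zfh2 and Rfabg all run upward to mock, whereas those of toy run both ways.

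RNase R libraries of title numbers 29 and 18 were compared with the genotype as a factor. At 29, 4 of the 20 tested genes rose and 0 fell, against 15.6% of all tested genes called (5.56% higher and 10% lower). The genes that rose were toy, CG11155, CG9935 and CG17471. By list, 1 of 4 tested synapse and neuronal surface genes rose (CG9935), 1 of 7 tested transcription and chromatin genes (toy) and 1 of 2 tested signalling genes (CG17471), while CG11155 stands in no list. The median log2 fold change was 0.02 among the 20 genes and -0.16 among all 828. With RLE scaling the calls over all genes split into 64 higher and 58 lower instead of 46 and 83, and the medians were 0.26 among the 20 genes and 0.08 among all genes. The same number of chromosome 4 genes, 4 higher, was called.

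CG11155 had 64.8 and 55.4 in slow29, 33.6 and 37.8 in slow18, 53.5 and 50.2 in WT29 and 25.1 and 20.7 in WT18 RNase R libraries. All libraries of 29 were above all libraries of 18, in both genotypes, with a log2 fold change of 0.95 ± 0.20 (SE; edgeR adjusted p = 8.0e-05). toy had 62.1 and 49.7 in slow29, 28.5 and 46.3 in slow18, 83.5 and 65.6 in WT29 and 31.7 and 40.9 in WT18 RNase R libraries. Here too the groups did not overlap, with a log2 fold change of 0.81 ± 0.19 (edgeR adjusted p = 4.0e-04). Both calls held without any 1 library.

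Within toy, the 2-exon junction 4:1024784-1025244 took 32.9% of toy reads at 29 and 32.6% at 18. The junction 4:1017138-1019331 took 13.2% of 395 reads at 29 and 27.1% of 144 reads at 18. The first share was alike in both groups and the second differed, without a test.

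CG9935 had 40.2 and 40.9 in slow29, 28.5 and 18.9 in slow18, 28.0 and 16.2 in WT29 and 10.02 and 13.4 in WT18 RNase R libraries, a log2 fold change of 0.79 ± 0.25 (edgeR adjusted p = 0.0133). The groups overlapped over genotypes but not within one: each genotype had both 29 libraries above both 18 libraries. The call ended without replicate 1 of WT18 (0.66, adjusted p = 0.115), replicate 2 of WT18 (0.80, adjusted p = 0.0513), replicate 1 of WT29 (0.67, adjusted p = 0.0819) or replicate 2 of slow18 (0.69, adjusted p = 0.0614).

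CG17471 had 13.7 and 12.6 in slow29, 3.36 and 4.21 in slow18, 9.50 and 7.29 in WT29 and 7.52 and 2.44 in WT18 RNase R libraries, with a log2 fold change of 1.14 ± 0.43 (edgeR adjusted p = 0.0493). This call sat at the threshold. It ended when any of 6 single libraries was left out, namely replicate 1 of WT29, slow18 or slow29 (adjusted p = 0.0925, 0.167 and 0.0914) and replicate 2 of WT18, slow18 or slow29 (adjusted p = 0.308, 0.106 and 0.0787). It was also lost with DESeq2, without the filter on low counts and without junctions over 100000 bases. CG2052 ran the other way, at 19.7 ± 2.56 in 29 and 28.1 ± 7.21 in 18 (SD, n = 4 each; log2 fold change -0.57 ± 0.24, edgeR adjusted p = 0.0901), and passed the threshold only without replicate 1 of slow18 (-0.74, adjusted p = 0.0329). Muscle marker circles were at 14.5 to 25.9 per 10000 in 29 and 40.9 to 82.3 in 18 RNase R libraries. Fat body marker circles without Rfabg were at 1.501 to 4.40 in 29 and 6.31 to 15.1 in 18. Neither list overlapped between 29 and 18 RNase R libraries, whereas neuron marker circles, at 52.9 to 62.3 in 29 and 55.5 to 66.8 in 18, did. Photoreceptor marker circles (31.5 to 42.1 in 29, 33.0 to 57.1 in 18) and those of a hemocyte list (15.5 to 28.4 and 5.04 to 31.5) overlapped too. Glia marker circles, near the limit of these counts, were at 0.500 to 1.62 in 29 and 0 in 18. In mock libraries the muscle list (104 to 238 in 29, 129 to 371 in 18) and the fat body list without Rfabg (9.64 to 31.5 and 23.3 to 51.2) did overlap. The part of these lists in the results was not tested.

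In mock libraries 0 of the 15 genes tested for title number were called by edgeR and 0 by DESeq2. Over all 263 tested genes edgeR called 0.76%. An unadjusted edgeR p below 0.05 was found for 1 of the 15 (CG11155) and for 38 of the 263. CG11155 averaged 59.2 ± 30.02 in 29 and 24.6 ± 14.4 in 18 mock libraries, a log2 fold change of 1.05 ± 0.51 with adjusted p = 0.325. These means rest on 51 reads in 29 and 11 in 18. toy had a mock log2 fold change of 0.34 ± 0.47. Summed over the 38 genes, levels were 383 to 453 reads per 10000 in 29 and 267 to 382 in 18 mock libraries. In RNase R libraries they were 274 to 332 in 29 and 211 to 265 in 18. Neither treatment showed overlap, though the mock ranges nearly met, and the summed levels were not tested.

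**Figure D3:**
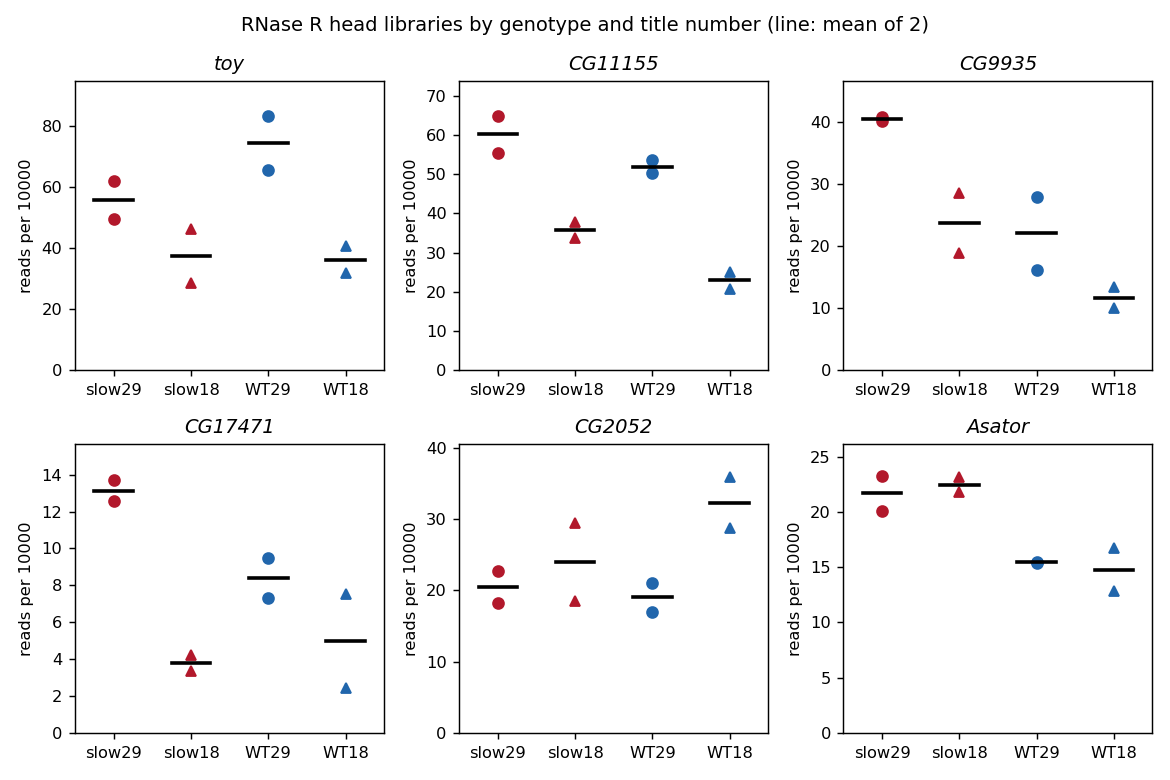
Reads per 10000 back-splice reads (vertical axes, from 0) of 6 genes in the 8 RNase R head libraries, by genotype and title number; points are libraries and lines are means of 2. toy and CG11155 lie higher in both 29 groups, and CG9935 lies higher in slow than in WT at the same title number.

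Whether the slow polymerase changed these circles was asked with the title number as a factor. In RNase R libraries 1 of the 20 tested genes rose in slow heads and 0 fell, against 5.43% of all tested genes called (2.66% higher and 2.78% lower). That share, 5%, was near the background. The gene was CG9935, at 32.1 ± 10.5 in slow and 16.9 ± 7.82 in WT (SD, n = 4 each). Its log2 fold change was 1.02 ± 0.24 (edgeR adjusted p = 0.00228), and it stayed called without any 1 library and under every other setting tried. At 29 both slow libraries were above both WT libraries, and at 18 likewise. In mock libraries, CG9935 averaged 66.7 ± 28.5 in slow and 57.3 ± 4.36 in WT, with a log2 fold change of 0.41 ± 0.35 that was not called (adjusted p = 0.786); whether the treatments differ in this was not tested.

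Asator stood at 20.1 and 23.3 in slow29 and 21.8 and 23.1 in slow18, against 15.5 and 15.4 in WT29 and 16.7 and 12.8 in WT18 RNase R libraries. The genotypes did not overlap, yet the log2 fold change of 0.68 ± 0.27 was not called (edgeR adjusted p = 0.135). In mock libraries the order of its means was the opposite, 16.6 ± 5.19 in slow and 25.7 ± 9.14 in WT. CG1674 did not overlap either, at 8.58 ± 3.01 in slow and 3.55 ± 1.62 in WT RNase R libraries (SD, n = 4 each). Its log2 fold change of 1.36 ± 0.50 had an edgeR adjusted p = 0.0965, and passed the threshold only without replicate 2 of WT29 (1.69, adjusted p = 0.0351). CG11155 was at 0.48 ± 0.20 (adjusted p = 0.158) and toy at -0.15 ± 0.19, with an interval of -0.53 to 0.22.

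In mock libraries 0 of 15 genes passed for genotype with edgeR and 0 were called by DESeq2. Over all 263 tested genes edgeR called 0.38%. An unadjusted edgeR p below 0.05 was found for 0 of the 15 and for 28 of the 263. Log2 fold changes of the 15 genes ran from -1.45 (Syt7) to 1.21 (CG32016). The interaction of genotype with title number was fitted in RNase R libraries. There edgeR called 0 of 20 genes and 0% of all 828, and DESeq2 called 0. An unadjusted edgeR p below 0.05 was found for 1 of the 20 and for 39 of all 828, so these shares were alike. The 1 gene was Sox102F, with an interaction of -2.10 ± 0.996 on the log2 scale. The intervals of toy (-1.15 to 0.39) and CG11155 (-1.20 to 0.42) include 0.

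**Figure D4:**
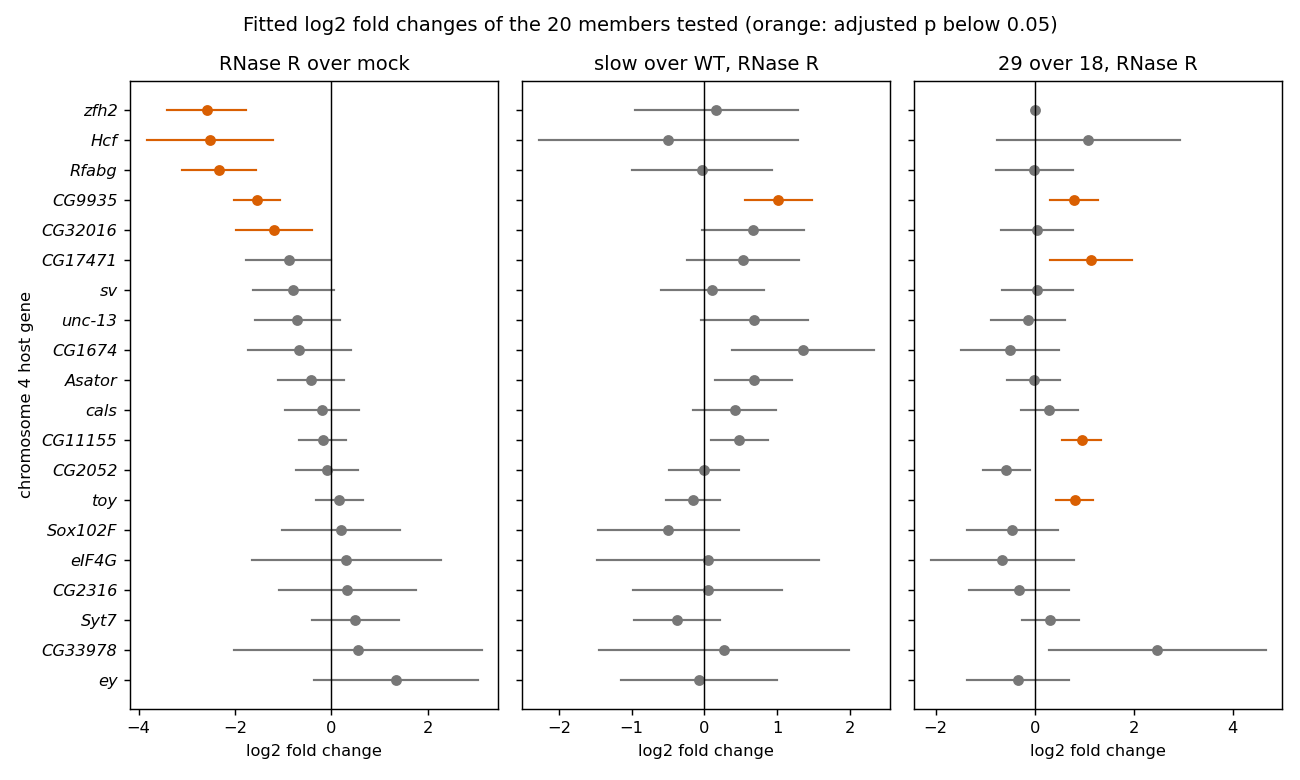
Fitted log2 fold changes (horizontal axes) of the 20 genes with enough reads, sorted by RNase R over mock, with intervals of 1.96 SE either side and calls at adjusted p below 0.05 in orange. The interval of zfh2 in the right panel is not drawn, since this SE is undefined near a fold change of 0. Calls are all below 0 for RNase R over mock and all above 0 in the other panels.

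With 1 S2 library per treatment no test was made. The genes took 152 reads per 10000 in the S2 RNase R library and 252 in the S2 mock library. Reads were found for 14 of the 38 genes, and toy, CG11155, Asator, Syt7 and sv had none. The floor of 3 reads stood at 2.17 per 10000 in the S2 RNase R library. CG2052 and unc-13 had the most reads. eIF4G, a translation initiation factor gene, was listed with the next most, but partly on junctions longer than the gene.

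CG2052 stood at 69.5 (exact Poisson interval 56.3 to 84.9) in S2 RNase R and 67.3 (exact Poisson interval 44.7 to 97.2) in S2 mock, above every head library in both treatments. The single-exon junction that led in heads held 92 of its 96 RNase R and 26 of its 28 mock reads. unc-13 stood at 34.0 (exact Poisson interval 25.01 to 45.3) in S2 RNase R and 98.5 (exact Poisson interval 70.7 to 134) in S2 mock. It came from other junctions than in heads: 4:903243-904267, with 74 head reads, had none in S2, while 4:919019-924097 (minus strand, 2 exons) had 34 RNase R and 24 mock reads in S2 and 2 RNase R and 7 mock reads in heads. In heads this second junction thus had more reads in the shallower mock libraries.

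eIF4G stood at 16.7 (exact Poisson interval 10.6 to 24.99) in S2 RNase R and 57.7 (exact Poisson interval 36.9 to 85.8) in S2 mock. Of these reads, 12 RNase R and 18 mock reads came from 4:881570-941825, which is longer than eIF4G and runs across unc-13, so its host is uncertain. Another such junction, 4:881450-941825, held 1 RNase R and 3 mock reads. The remaining eIF4G junctions held 10 RNase R and 3 mock reads in S2, fewer than the 15 RNase R and 5 mock reads of cals. Of the 2 head junctions of eIF4G, 4:945709-947287 (4 exons, 19 head reads) had none in S2 and 4:938950-941825 (3 exons, 3 head reads) had 3 RNase R reads. cals, at 10.9 (exact Poisson interval 6.08 to 17.9) in S2 RNase R and 12.01 (exact Poisson interval 3.90 to 28.0) in S2 mock, was the one gene of the synapse and neuronal surface list besides unc-13 with more than 5 S2 reads in a library. In all, 15 of the 31 S2 junctions of these genes were also listed in heads, and they held 169 of 210 RNase R and 75 of 105 mock reads. Intervals and floors cover counting error only, since amplified reads are not independent molecules.

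The strand-keeping WT library gave 51 reads for 9 of the genes, 198 per 10000. This single value lay below the range of the unstranded heads in either treatment, but its counting error was not computed. All 12 junctions with reads lay on the strand of their gene, and all were also listed in the unstranded head tables. toy led with 18 reads (70.0 (exact Poisson interval 41.5 to 111) per 10000), followed by CG9935 with 9 (35.0 (exact Poisson interval 15.99 to 66.4)) and CG11155 with 7 (27.2 (exact Poisson interval 10.9 to 56.1)). toy reads there lay on 4:1012692-1025244 (7), 4:1017138-1019331 (6), 4:1012692-1019331 (3) and 4:1017138-1025244 (2), and none on the 2-exon junction that led in unstranded heads. That junction led through the RNase R libraries. In mock heads, which like the stranded library have no RNase R units given, other toy junctions held more reads. The stranded data are 1 library, so the difference has no replicate check.

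Junction spans were compared with annotated exons by length. Of the 149 head junctions, 84 (56.4%) had exactly the length between the start of 1 annotated exon of the gene and the end of the same or a later one, and they held 91.3% of the reads. A length 1 base longer matched for 5 (3.36%), which gives a level for matches of length alone. Of the junctions in other host genes 67.8% matched, with 92.0% of reads. Rfabg alone made up 28 of the 65 unmatched junctions, and without it 69.4% matched. Unmatched junctions were short and rare, with a median span of 235 bases and 2 reads, against 2543.5 bases and 5.5 reads for matched ones. None of the 24 junctions on the strand opposite to their gene matched; how the unstranded tables were given a strand is not stated in the sources used here. CG33978 had 7 junctions and 14 reads without any match, 4 of them on the opposite strand, so that its fitted values rest on such junctions.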

How the data were processed

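Back-splice junctions were counted in 19 libraries of fly heads and S2 cells. Per the labels' protocol, ribosomal RNA was removed with Ribominus, the digested RNA received 3 units of RNase R per microgram (37 °C, 15 min), and TruSeq RNA was the library kit. CASAVA, Bowtie and the build dm3 are named in the submitters' processing notes; versions, junction caller and gene annotation are not given in the sources used here. The deposited values are read counts per junction, not normalized. In the head and S2 tables the authors deposited them as comma-separated lists of counts, 1 per library, and every list sums to the total of its row. A junction with fewer than 2 reads in a table is not listed and was taken as 0. Coordinates are dm3, counted from 1.

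Both head tables were joined and counts summed per host gene. Genes with at least 10 reads and reads in at least 2 fitted libraries entered edgeR 4.0.16 (R 4.3.3): the two-sided quasi-likelihood F-test, TMM factors over the 100 most abundant tested genes and Benjamini-Hochberg adjustment at 0.05 over all tested host genes. The RNase R against mock fit had the RNA sample as a block, since the design text gives both libraries of a sample, and genotype and title number were each fitted with the other as a factor. The SE is the absolute log2 fold change divided by the square root of F and restates the test. DESeq2 1.42.0, other scalings and filters were alternatives. The test was run on simulated data with known changes, where the share of false calls ran somewhat above 0.05 in several comparisons, so calls near the threshold are less certain than their adjusted p states.

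Named are genes called in any head test, the 12 with the highest mean in RNase R heads and the 3 with most reads in S2 cells and in the stranded library; others named were chosen after their values were seen. The members, gene lists and tests were chosen with earlier results of these data known. Exon spans were matched by length alone to the Ensembl 115 BDGP6 annotation, without converting coordinates, and all 38 genes matched a current symbol. Replicates are not stated to be separate sets of flies, so the p-values cover only the variation among these libraries, and that may be technical. Depth is known only as listed back-splice reads, and counts without molecular identifiers give intervals for counting error only.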

Additional observations from a re-analysis of the deposited data

Results flagged for a closer look

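Among 90 groups of named genes and libraries, 4 held a library far from the others of its group, and chance flags about 1 group in 20. Asator in replicate 1 of WT18 stood at 38.9 reads per 10000, the highest of the 8 mock heads. CG32016 in replicate 1 of slow29 stood at 18.3, the highest of the 8 RNase R heads. zfh2 stood at 6.50 in replicate 1 of WT29, the highest of the RNase R libraries with title number 29, and at 10.5 in replicate 2 of slow18, the highest of the slow RNase R libraries.

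In S2 cells, 5 chromosome 4 junctions without a host gene held 37 RNase R and 23 mock reads, and none of them had a read in heads. They were not used in the comparisons. The most read, 4:434537-437450 (minus strand, dm3), had 16 RNase R and 12 mock reads.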

How the results depend on the processing

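Of 222 recomputed counts and shares, 179 moved by less than 1.5 times their value as reported or by less than the spread between replicates. No called fold change of a single gene changed sign, but the balance of calls over all genes and list medians did turn with the scaling. For the 285 fold changes of single genes, 257 kept their side of the threshold, 26 fell short of it and 2 passed it. Against 5 chromosome 4 genes called for RNase R over mock, DESeq2 and a filter of 50 reads each called 3, and leaving out 1 RNA sample gave 3 to 5. Over all host genes, 86 calls (18 higher, 68 lower) became 220 with TMM over all tested genes (171 higher, 49 lower). They became 61 with DESeq2 (20 higher, 41 lower) and 44 with a filter of 50 reads. With exon-matched junctions alone, an alternative chosen after seeing the data, they became 36. Leaving out 1 RNA sample gave 68 to 82. For 29 over 18 in RNase R libraries, 129 calls became 65 with DESeq2 (38 higher and 27 lower, instead of 46 and 83), and leaving out 1 library gave 82 to 128 over all genes and 2 to 5 of the chromosome 4 genes. For slow over WT in RNase R libraries, 45 calls became 17 with DESeq2, and leaving out 1 library gave 14 to 52 over all genes (14 without replicate 2 of slow29) and 1 to 2 of the chromosome 4 genes; with library totals alone the calls split into 16 higher and 36 lower instead of 22 and 23. In mock libraries the counts over all genes were small and unstable. For slow over WT, 1 call became 0 with RLE, TMM over all tested genes, DESeq2, no filter or junctions in both replicate tables only, 3 with a filter of 50 reads or without junctions over 100000 bases, and 0 to 2 when 1 library was left out. For 29 over 18, 2 calls (both lower) became 5 with RLE, 6 with TMM over all tested genes (all higher), 8 with library totals alone, 0 with DESeq2 or junctions in both replicate tables only, 9 with a filter of 50 reads, 10 without junctions over 100000 bases or with exon-matched junctions alone, and 0 to 4 when 1 library was left out. With all 45 chromosome 4 host genes the share was 871 per 10000 in RNase R heads and 1123 in mock heads. The causes of these changes were not tested.

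Libraries with the same replicate number were not shown to be paired: their deviations from the group means correlated at 0.02 to 0.09 in RNase R and -0.01 to 0.39 in mock libraries. With the replicate number as a block, 29 over 18 in mock libraries gave 8 calls over all genes, and CG17471 in RNase R libraries fell short of the threshold (1.13, edgeR adjusted p = 0.0560). Without the RNA sample as a block, RNase R over mock gave 92 calls over all genes and the same number of chromosome 4 genes. Depth limits the mock comparisons: 23 of the 38 genes had too few mock reads to be tested for genotype or title number.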
